A study of Mus musculus with 12 samples.

Results

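This section describes 10 genes that mark fibroblasts of the meninges, other than collagens, in RNA of cells sorted from mouse meninges. They were chosen as a list of symbols, Dcn, Lum, Mgp, Pdgfra, Dpt, Slc6a13, Aldh1a2, Crabp2, Foxc1 and Fbln1, out of 23238 symbols in the files, and each has 1 row in every library. The submitters describe magnetic isolation of lymphatic endothelium, which lines lymph vessels, from the meninges, with 3 to 4 mice per strain and libraries in quadruplicate. The 12 libraries carry the titles AD_TG, AD_B6 and SJL_B6, 4 of each, and all of them are labelled as meninges of C57BL/6 mice 20 weeks old. The series title concerns DSCR1 and Alzheimer's disease, but the labels do not spell out AD, TG, B6 or SJL, and name no allele, promoter or transgene for any group. Separate animals behind the 4 libraries of a title are not stated, so p-values measure only the spread between these libraries, which may be technical.

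Meningeal fibroblasts form the collagen-rich layers of the dura, arachnoid and pia. They lay down small proteoglycans that space collagen fibrils, make retinoic acid for the developing brain, and carry the PDGF receptor alpha that is used widely as a fibroblast marker. The transcription factor Foxc1 is needed in mice for the meninges and the skull above them to form. None of these genes is restricted to the meninges: Mgp is also known from vascular smooth muscle and cartilage, and Pdgfra from oligodendrocyte progenitors.

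Promoter windows were on hand in the RefSeq tables for 6 of the 10 genes, in 9 windows of build GRCm38.p6, and those of Foxc1, Fbln1 and Aldh1a2 are shown because they belong to the transcription factor, a matrix protein and the retinoic acid enzyme described below. Each covers the 250 bases before the annotated start on the plus strand. Capitals mark matches, on either strand, to the CCAAT box, a GC box or a palindromic E box, none of which overlap here.
Foxc1, chr13:31806396-31806645: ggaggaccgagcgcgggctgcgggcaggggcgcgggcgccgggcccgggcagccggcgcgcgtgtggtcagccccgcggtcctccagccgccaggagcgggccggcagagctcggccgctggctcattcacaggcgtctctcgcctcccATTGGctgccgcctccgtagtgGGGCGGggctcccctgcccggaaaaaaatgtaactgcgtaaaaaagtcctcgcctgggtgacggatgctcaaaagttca
Fbln1, chr15:85205699-85205948: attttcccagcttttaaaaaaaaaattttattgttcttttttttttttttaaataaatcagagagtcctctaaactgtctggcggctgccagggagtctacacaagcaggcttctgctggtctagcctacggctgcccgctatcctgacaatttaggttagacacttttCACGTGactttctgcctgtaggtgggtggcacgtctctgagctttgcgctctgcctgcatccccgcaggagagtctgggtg
Aldh1a2, chr9:71215539-71215788: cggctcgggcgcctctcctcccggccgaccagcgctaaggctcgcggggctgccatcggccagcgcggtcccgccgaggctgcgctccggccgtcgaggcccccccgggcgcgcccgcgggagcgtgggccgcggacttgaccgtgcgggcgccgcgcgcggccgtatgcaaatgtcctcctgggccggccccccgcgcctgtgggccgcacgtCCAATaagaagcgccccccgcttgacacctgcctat
On either strand, the CCAAT box was present in 33.8% of all 32851 promoter windows cut to the same length. The GC box, with the letters GGGCGG, was present in 32.7% of them. The palindromic E box CACGTG, found before Fbln1, was present in 6.02%. The TATA box TATAAA was searched for as well, was present in 12.4% of all windows and had no match in the 9 windows of these genes. The Foxc1 window is 70.8% and the Aldh1a2 window 77.6% G and C, against 46.4% for this Fbln1 window and a median of 52.4% over all windows. The other Fbln1 window, chr15:85205758-85206007, overlaps this one and is not shown. It is 62.4% G and C and holds a GC box beside the same E box. These matches describe the letters only.

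Values are deposited log2 values of a scaled amount plus 1, and the scaling is not stated in the sources used here. Estimated depth was 4149412 to 9316680 reads for AD_TG, 5469205 to 8907397 for AD_B6 and 4013440 to 9292784 for SJL_B6. Of 10 genes that every cell uses, Tbp was below the value of 1 read in 4 libraries, so a gene listed at 0 is described only as that. The median correlation across genes was 0.468 between libraries of a group and 0.469 between libraries of different groups.

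The 10 genes together made up 0.0911 to 0.454% of the linear total in AD_TG libraries, 0.142 to 0.828% in AD_B6 and 0.250 to 0.287% in SJL_B6. Mgp was the largest part of the sum in every library. It alone held 0.317% in AD_TG replicate 3, 0.554% in AD_B6 replicate 3 and 0.143% in SJL_B6 replicate 3. These sums are therefore mostly those of Mgp. In bulk RNA, fewer cells of a type and less RNA per cell cannot be told apart. The 7 lymphatic endothelial markers held 0.0120 to 0.0202% of AD_TG libraries, 0.0127 to 0.0253% of AD_B6 libraries and 0.0102 to 0.0430% of SJL_B6 libraries. Prox1, which defines lymphatic endothelium, had reads in 2 of the 12 libraries, Flt4 in 6, Lyve1 in 11 and Pdpn in 12. Collagen, macrophage and choroid plexus genes were present too, and which cells each transcript came from was not tested.

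**Figure D1:**
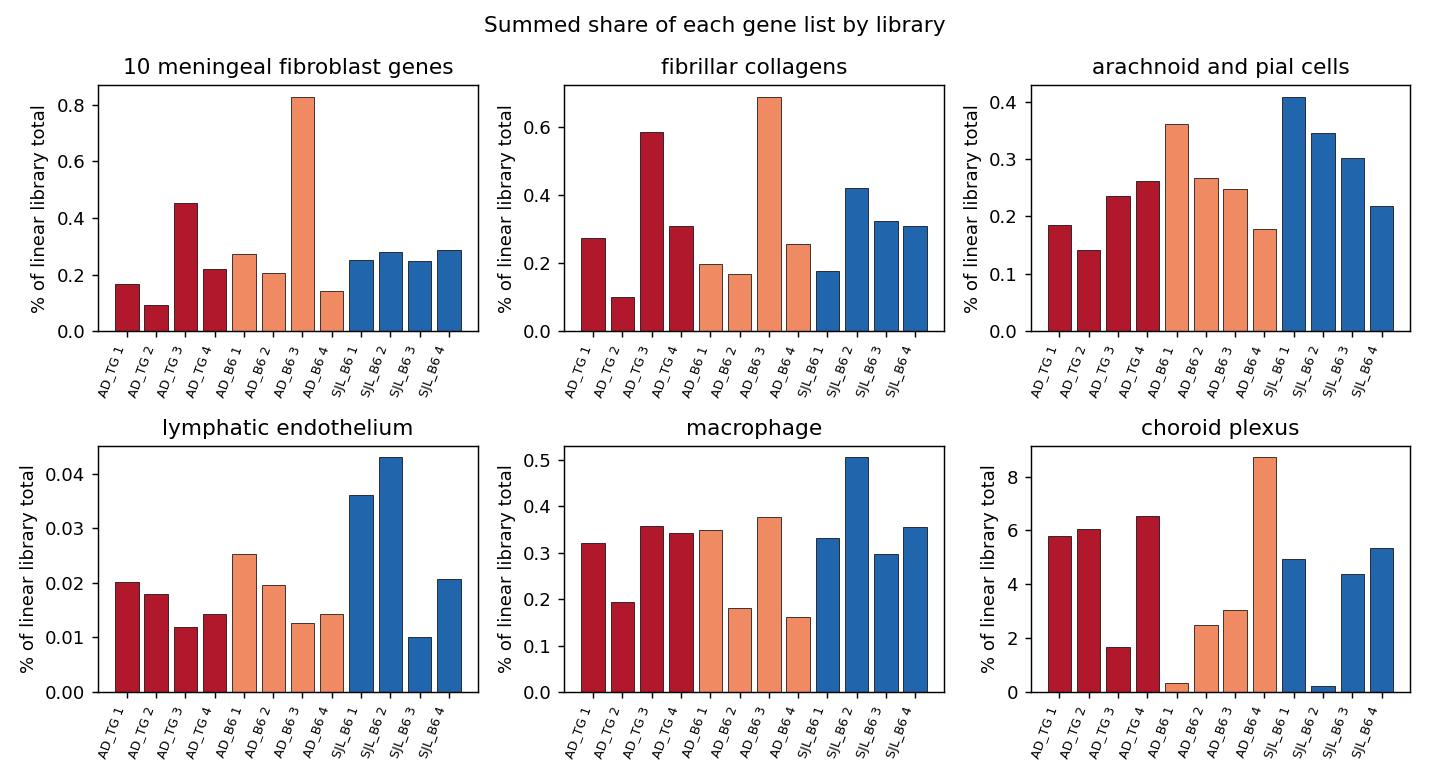
Each bar is 1 library, coloured by group (AD_TG, AD_B6, SJL_B6 from left to right), and its height is the summed linear value of a gene list as a percentage of the library total. AD_B6 replicate 3 has the tallest bar for the 10 fibroblast genes (0.828%, of which Mgp holds 0.554%) and for the fibrillar collagens (0.689%). It does not have the tallest bar for arachnoid and pial markers (0.248%).

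Among the matrix genes, Dcn, Mgp and Fbln1 had reads in every library, Lum in 11 and Dpt in 4. Dcn encodes decorin, a small leucine-rich proteoglycan that binds collagen fibrils. In replicates 1 to 4, AD_TG had 11.36, 9.61, 12.14 and 11.16, AD_B6 had 10.41, 10.24, 13.39 and 11.22, and SJL_B6 had 10.50, 11.36, 12.39 and 11.84. Replicate 3 was the highest Dcn library of each group, and the 3 groups overlapped. Lum encodes lumican, a proteoglycan of the same family that regulates fibril thickness. Its values were 8.58, 6.38, 9.68 and 6.64 in AD_TG, 4.24, 0, 10.24 and 7.18 in AD_B6 and 2.19, 7.82, 9.08 and 7.38 in SJL_B6. The widest span of Lum lay within AD_B6, where replicate 2 was listed at 0 and replicate 3 had the highest value of any library.

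Mgp encodes matrix Gla protein, an inhibitor of calcification that also binds BMPs. Its values were 12.96, 12.27, 14.32 and 13.49 in AD_TG, 13.81, 13.56, 15.07 and 12.67 in AD_B6 and 14.05, 13.80, 13.27 and 13.75 in SJL_B6. The 3 groups overlapped, and the 4 SJL_B6 libraries lay closest together. The within-group standard deviation of Mgp over all groups, 0.782, was the smallest of the 8 genes that could be tested, and Mgp also had the highest mean. Among 28 genes of like mean level it lay at percentile 82.1. On the same measure the 8 genes ran from percentile 55.3 for Fbln1 to 96.8 for Dcn. Fbln1 encodes fibulin 1, a protein of basement membranes and elastic fibres. AD_TG had 5.10, 8.99, 9.18 and 8.08, AD_B6 had 8.47, 5.45, 10.31 and 8.41, and SJL_B6 had 6.74, 9.0, 8.14 and 8.62. Low values of Fbln1 occurred in 1 library of each group, and they were not the libraries in which Mgp was lowest. Dpt encodes dermatopontin, a small matrix protein that binds decorin. It had reads in 4 libraries, at 2.66 and 7.03 in AD_TG replicates 1 and 3 and at 2.19 and 6.58 in SJL_B6 replicates 1 and 2. All 4 AD_B6 libraries listed Dpt at 0 or below the value of 1 read, as did the remaining 4 libraries of the other groups.

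Pdgfra encodes a receptor of PDGF ligands, A and C among them. Its values were 8.65, 0, 9.56 and 8.45 in AD_TG, 8.73, 1.81, 8.36 and 8.93 in AD_B6 and 7.79, 5.60, 7.39 and 8.02 in SJL_B6. Replicate 2 was the lowest Pdgfra library of every group, and in AD_TG and AD_B6 it lay far below the others. The Foxc1 values were 9.18, 4.24, 10.28 and 8.44 in AD_TG, 9.29, 9.06, 11.17 and 8.07 in AD_B6 and 9.39, 8.78, 9.95 and 8.83 in SJL_B6. AD_TG replicate 2 was again the low library, while the other 11 ran from 8.07 to 11.17.

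Of the genes of retinoic acid and transport, Aldh1a2 and Crabp2 had reads in 9 libraries each and Slc6a13 in 3. Aldh1a2 encodes the dehydrogenase that makes retinoic acid from retinal. It had 7.40, 0, 8.75 and 8.21 in AD_TG, 7.66, 0, 7.68 and 2.31 in AD_B6 and 8.16, 6.93, 4.19 and 0 in SJL_B6. Each group therefore had 1 library listed at 0 for Aldh1a2. Crabp2 encodes a carrier that delivers retinoic acid to its nuclear receptors. It had 0.07, 5.85, 8.60 and 0.85 in AD_TG, 6.08, 0, 10.002 and 0.03 in AD_B6 and 6.65, 5.72, 2.17 and 6.63 in SJL_B6. The 0.07 and 0.03 lie below the value of 1 read, so Crabp2 had reads in 3 AD_TG, 2 AD_B6 and 4 SJL_B6 libraries. Slc6a13 encodes the GABA and taurine transporter GAT2, which in mouse brain is known from the leptomeninges. It had reads in 3 libraries, at 7.70 in AD_TG replicate 2 and at 4.65 and 6.66 in SJL_B6 replicates 3 and 4, and all AD_B6 libraries were at 0 or below 1 read. Of the 3 libraries with Slc6a13 reads, 2 listed Aldh1a2 at 0, and 3 libraries are too few to show how these genes relate.

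**Figure D2:**
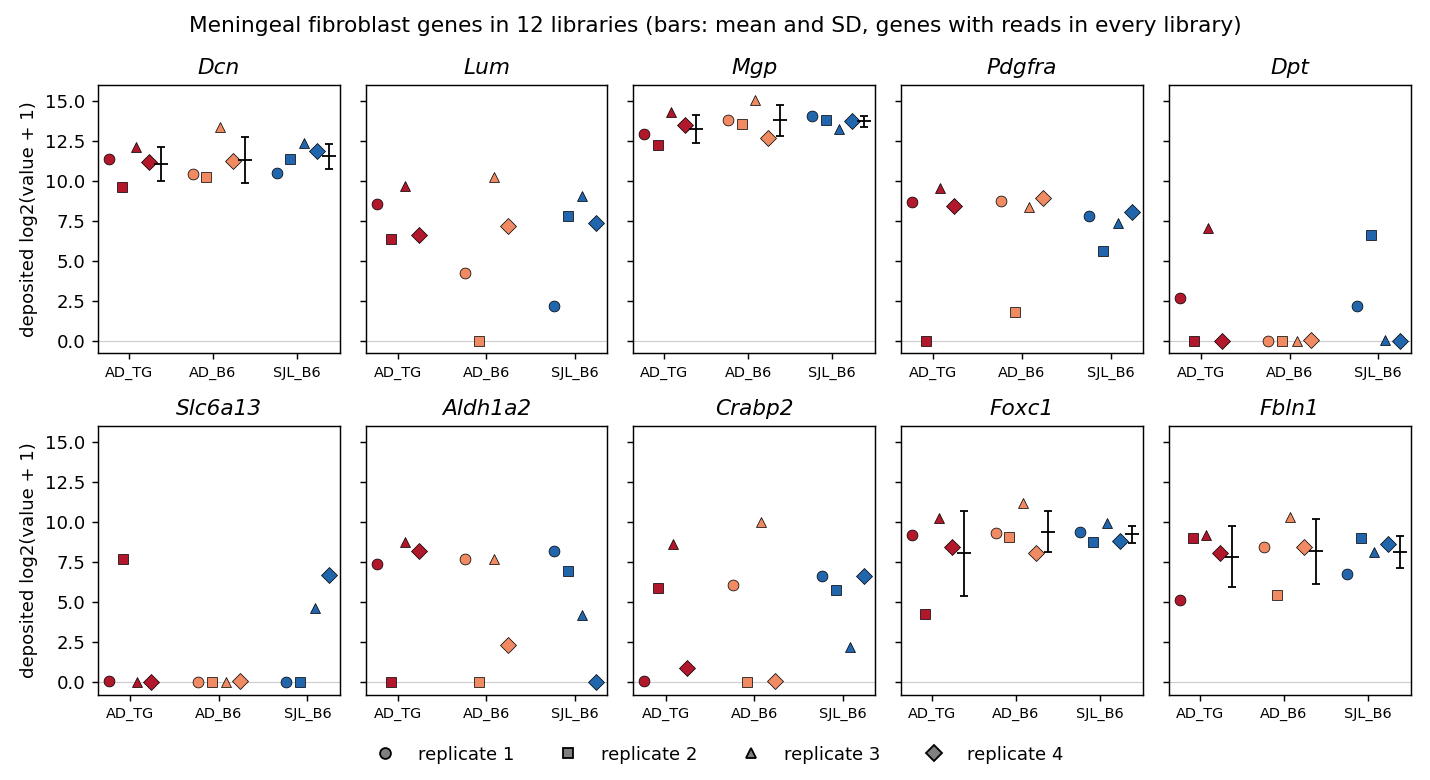
Points are the deposited log2 values of single libraries, with the groups AD_TG, AD_B6 and SJL_B6 from left to right and the replicate number as the symbol; bars give mean and SD for Dcn, Mgp, Foxc1 and Fbln1, the genes with reads in all 12 libraries. Groups overlap for every gene, and Dpt and Slc6a13 sit at or near 0 in most libraries.

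The titles allow 3 comparisons, and 8 of the 10 genes passed the filter on low values; Dpt and Slc6a13 did not. The comparison of AD_B6 with SJL_B6 bears on the AD label, but these titles differ in SJL too, so AD and SJL cannot be told apart. Dcn averaged 11.31 ± 1.45 in AD_B6 and 11.52 ± 0.80 in SJL_B6, and the Mgp means were 13.78 ± 0.99 for AD_B6 and 13.72 ± 0.32 for SJL_B6 (SD, n = 4 each). The Dcn difference was -0.21 (SE 0.58, 95% interval -1.41 to 0.998) with an adjusted p of 0.979 in limma, and the Mgp difference 0.06 (interval -0.73 to 0.85, adjusted p = 0.998 in limma). Foxc1 averaged 9.40 ± 1.3 in AD_B6 and 9.24 ± 0.55 in SJL_B6, and Fbln1 averaged 8.16 ± 2.01 in AD_B6 and 8.12 ± 0.99 in SJL_B6. Differences were positive for Mgp, Foxc1 and Fbln1 and negative for the other 5, with a median of -0.23 beside -0.31 over all 11955 genes tested. Single libraries turned this count. Without AD_B6 replicate 2 all 8 differences were positive (median 0.44), beside 41.2% of all genes tested (median -0.31). Without AD_B6 replicate 3 all 8 were negative (median -0.81), where 46.7% of all genes tested were positive (median -0.11). Limma called 0 of the 8, beside 0% of all genes. None of the 8 reached an unadjusted p under 0.05, beside 5.41% of all genes (647). None had groups that did not overlap, beside 2.82%. Subtracting each library's mean over the genes tested turned the median difference to 0.24, beside 0.16 over all genes.

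The comparison of AD_TG with AD_B6 bears on the TG label, and since the titles differ in B6 as well, TG and B6 cannot be told apart. Mgp averaged 13.26 ± 0.87 in AD_TG and 13.78 ± 0.99 in AD_B6 (SD, n = 4), a difference of -0.52 (SE 0.38, interval -1.31 to 0.27, adjusted p = 0.874 in limma). Foxc1 averaged 8.03 ± 2.64 in AD_TG and 9.40 ± 1.3 in AD_B6, a difference of -1.36 (SE 0.98, adjusted p = 0.874 in limma). Without AD_TG replicate 2, the Foxc1 difference was -0.10 (SE 0.76). The difference of Lum, 2.41 (SE 1.96), had an interval from -1.63 to 6.45, and was 0.60 without AD_B6 replicate 2 and 4.02 without AD_B6 replicate 3. Only Lum and Aldh1a2 had positive differences, and the median of the 8 was -0.27 beside 0.41 over all genes tested. That median was -0.92 without AD_B6 replicate 2, beside 0.41 over all genes. Without AD_B6 replicate 3 it was 0.42, with 6 positive, beside 0.22 and 56.6% positive over all genes. With each library's mean subtracted it was -0.90, beside -0.22 over all genes. Limma called 0 of the 8, beside 0% of all genes. No gene of the 8 had an unadjusted p under 0.05, beside 5.35% (639 genes), and none had groups apart, beside 2.88%. After subtracting each library's mean, Mgp differed by -1.15 (unadjusted p = 0.0161 and adjusted p = 0.774 in limma, where all alternatives gave 0.710 to 0.975). AD_B6 also holds the library with the fewest genes with reads, 8748 in replicate 3, which was the library with the highest Mgp; without it the Mgp difference was -0.09 (SE 0.36, adjusted p = 0.975 in limma).

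AD_TG against SJL_B6 differ in both title parts. Dcn averaged 11.06 ± 1.06 in AD_TG and 11.52 ± 0.80 in SJL_B6 (SD, n = 4), and differed by -0.46 (SE 0.58, interval -1.66 to 0.75). Fbln1 averaged 7.84 ± 1.89 in AD_TG and 8.12 ± 0.99 in SJL_B6, and Mgp 13.26 ± 0.87 in AD_TG and 13.72 ± 0.32 in SJL_B6. Of the 8 genes, Lum (1.2) and Aldh1a2 (1.27) had positive differences, and the median was -0.46 beside 0.08 over all genes tested. Without AD_TG replicate 2 the median was 0.05, with 5 of 8 positive, beside 0.16 and 55.2% positive over all genes. Without AD_TG replicate 3 it was -0.81, beside 0.11 over all genes. With each library's mean subtracted it was -0.62, beside -0.08 over all genes. The adjusted p of each was 0.999 in limma, which called 0 of the 8 and 0% of all genes. None had an unadjusted p under 0.05, beside 2.99% (357 genes), and none had groups apart, beside 2.53%. The comparisons share libraries, so their signs do not support each other. The widest intervals were those of Crabp2, from -6.98 to 4.08 in this comparison, and of Aldh1a2, from -4.10 to 6.64, so differences of several log2 units were not resolved for them.

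**Figure D3:**
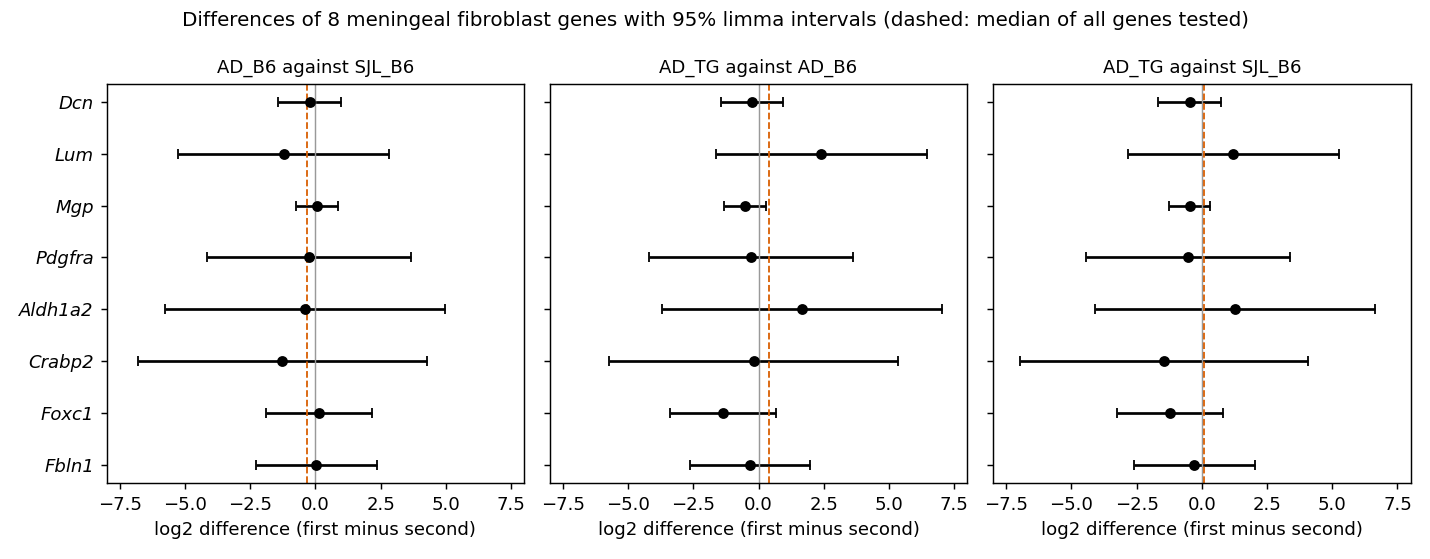
Points are limma log2 differences, first group minus second, for the 8 genes that passed the filter, with 95% intervals and a dashed line at the median of all genes tested. Every interval includes 0, and those of Dcn and Mgp are the narrowest.

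Most of the variation in these genes lay between libraries of the same group. The share of the sum of squares between groups was 0.574% for Pdgfra, 0.972% for Fbln1, 3.5% for Dcn, 3.55% for Crabp2, 4.35% for Aldh1a2, 10.5% for Mgp, 11.2% for Lum and 14.2% for Foxc1. The median over the 8 genes was 3.95%, beside 14.3% over all genes tested, as a description without a test.

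AD_B6 replicate 3 held the highest value of 6 of the 10 genes, namely Dcn, Lum, Mgp, Crabp2, Foxc1 and Fbln1. AD_TG replicate 3 held the highest Pdgfra, Dpt and Aldh1a2 and was among the 3 highest libraries for 9 of the 10. Averaged over Dcn, Mgp, Foxc1 and Fbln1 after centring each gene, AD_TG libraries lay at -0.80, -1.68, 1.02 and -0.16, AD_B6 at 0.04, -0.88, 2.03 and -0.36, and SJL_B6 at -0.28, 0.28, 0.48 and 0.31. The highest and the lowest library are thus both outside SJL_B6, and the 3 ranges overlap. AD_B6 replicate 3 had 8748 genes with reads, against 10438 to 12217 in the other 11 libraries, and the lowest mean log2 over the genes tested, 5.43. With each library's mean subtracted it stood at 3.11 on the same average. Its part in the pattern was not tested beyond leaving it out.

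**Figure D4:**
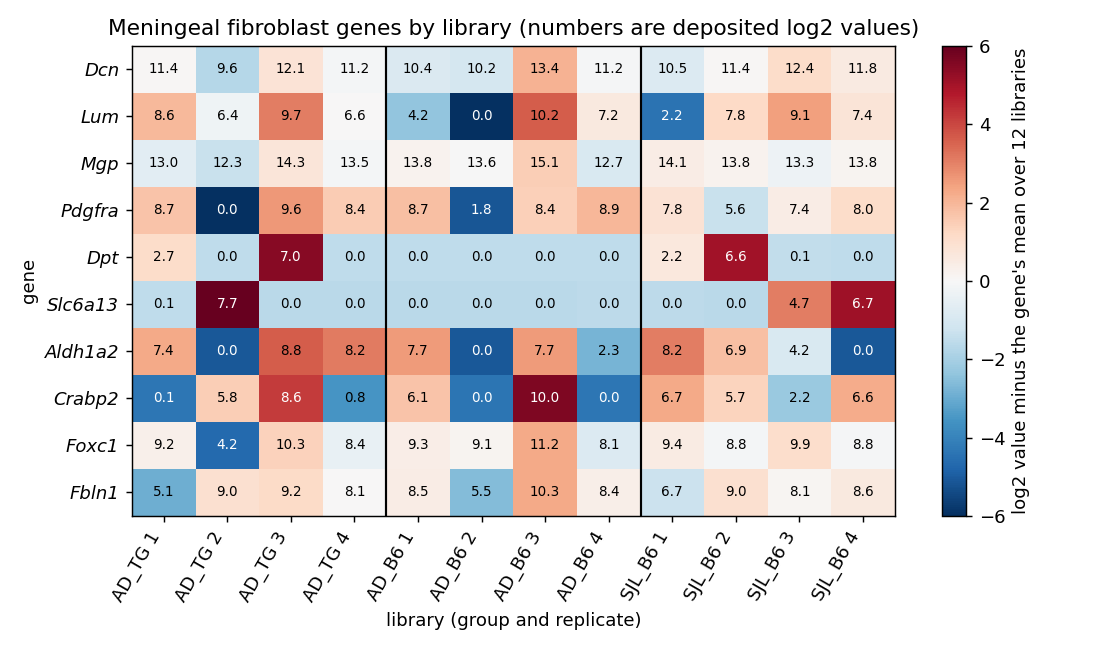
Rows are the 10 genes and columns the 12 libraries, grouped as AD_TG, AD_B6 and SJL_B6; numbers are deposited log2 values and colours their distance from the gene's mean over all libraries. The columns of AD_TG replicate 3 and AD_B6 replicate 3 are red for most genes, and AD_B6 replicate 2 is blue or near white for all 10.

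Dcn, Mgp, Foxc1 and Fbln1 form 6 pairs, which were compared over the 12 libraries. Mgp and Foxc1 had a Pearson r of 0.801 (permutation p = 0.00168, adjusted p = 0.0101 over the 6 pairs) and a Spearman rho of 0.727 (permutation p = 0.00951, adjusted p = 0.0571). Dcn and Foxc1 had r = 0.729 (permutation p = 0.00726, adjusted p = 0.0218) and rho = 0.601 (permutation p = 0.0432, adjusted p = 0.130). Without the 2 libraries farthest from the median, AD_B6 replicate 3 and AD_TG replicate 2 in both cases, r was 0.555 and 0.367 (permutation p = 0.0956 and 0.301), and neither relation passed the threshold. Mgp and Foxc1 still passed without either library alone, with r = 0.757 (adjusted permutation p = 0.0236) without AD_B6 replicate 3 and r = 0.772 (adjusted permutation p = 0.0371) without AD_TG replicate 2. Dcn and Foxc1 did not pass with either library left out, though r was still 0.656 and 0.670 (adjusted permutation p = 0.0513 and 0.0710). Its passing of the threshold thus depended on each of those libraries. Dcn and Mgp had r = 0.607 (adjusted permutation p = 0.0725), which was -0.04 without the same libraries. Foxc1 and Fbln1 had r = 0.00781, so the 4 genes did not all vary together. The median r of the 6 pairs was 0.523, beside -0.01 over all pairs of the 4950 genes with reads in every library.

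Over all 28 pairs of the 8 tested genes, a set added after the values were seen, every r was above 0, with a median of 0.437. With Dpt and Slc6a13 included, 39 of 45 were above 0, with a median of 0.286. The lowest of the 45 was that of Slc6a13 and Aldh1a2, r = -0.67 (rho = -0.48), where Slc6a13 had reads in only 3 libraries. Dcn and Lum, both small leucine-rich proteoglycans, had the highest rank correlation, rho = 0.923 (permutation p = 4.00e-05, adjusted p = 0.00112 over 28 pairs), with r = 0.749 (permutation p = 0.00474, adjusted p = 0.0664). Without AD_B6 replicate 3 and AD_TG replicate 2, r was 0.889 and rho 0.939. Mgp and Crabp2 had r = 0.659 (permutation p = 0.0172, adjusted p = 0.0828) and 0.858 without those 2 libraries. Each pair was also taken without the 2 libraries farthest from the median of its first gene. Among pairs with an unadjusted permutation p under 0.05, r then rose only for Dcn and Lum, Mgp and Crabp2, and Crabp2 and Fbln1. For Pdgfra and Foxc1 it fell from 0.683 to 0.149, and for Pdgfra and Aldh1a2 from 0.647 to 0.094. Both were without AD_B6 replicate 2 and AD_TG replicate 2. By r, 11 of the 28 pairs had an unadjusted permutation p under 0.05. Of these, 1 passed the adjustment, Mgp and Foxc1 (adjusted permutation p = 0.0470). Dcn and Foxc1, past the threshold over 6 pairs, did not pass over 28 (adjusted permutation p = 0.0678). By rho 1 passed, Dcn and Lum. The share among pairs of all genes tested was not computed, and the 28 pairs share genes and low libraries. These counts are therefore a description only.

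**Figure D5:**
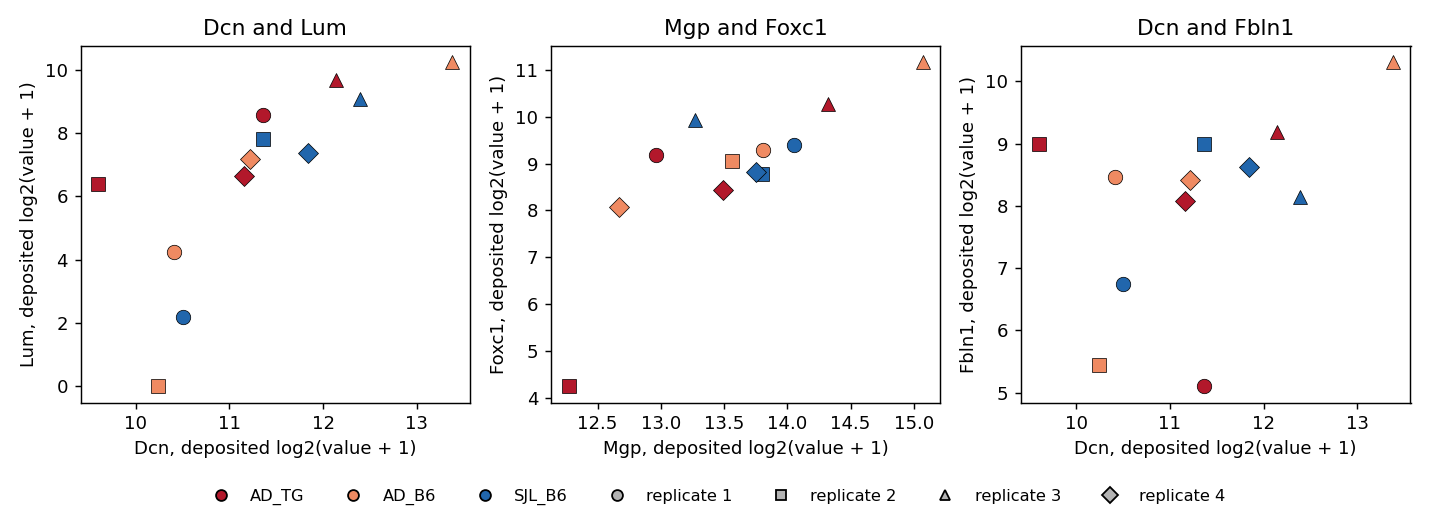
Each point is 1 library, coloured by group and shaped by replicate number, on the deposited log2 scale. High Dcn goes with high Lum across the 12 libraries (rho = 0.923), Mgp and Foxc1 are spread along AD_B6 replicate 3 and AD_TG replicate 2 (r = 0.801), and Dcn and Fbln1 are looser (r = 0.439).

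The genes most like the fibroblast genes were ranked by Pearson r over the 12 libraries with the centred mean of Dcn, Mgp, Foxc1 and Fbln1, among the 4946 other genes with reads in every library, and carry no p because they were picked as the highest. The first 5 were Paip1 (r = 0.890, rho = 0.720), a regulator of translation; Gjb2 (r = 0.887, rho = 0.888), a gap junction protein; Slc38a2 (r = 0.869, rho = 0.804), an amino acid transporter; Serping1 (r = 0.861, rho = 0.818), the inhibitor of complement C1; and Hist1h2ae (r = 0.855, rho = 0.755), a histone H2A gene. Hist1h2ae has near-identical copies and its value is uncertain. Gjb2 ran from 6.92 to 10.54 and Serping1 from 9.31 to 12.40, both highest in AD_B6 replicate 3. Without that library r was 0.830 for Paip1, 0.855 for Gjb2, 0.776 for Slc38a2, 0.798 for Serping1 and 0.738 for Hist1h2ae. AD_TG replicate 2 was the lowest library for Paip1, Slc38a2, Serping1 and Hist1h2ae, and r without it was not computed.

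Of the fibrillar collagens, Col1a2 and Col1a1 ranked close behind. Col1a2, at 13.29 ± 0.75 over the 12 libraries (SD), was the gene ranked 7 of 4946 with r = 0.843, and Col1a1, at 12.65 ± 0.77, was ranked 11 with r = 0.816. Col3a1 was ranked 111 (r = 0.644), with r = 0.471 without AD_B6 replicate 3. Col5a1 had reads in 10 libraries and was listed at 0 in AD_B6 replicate 3, so it was not among the genes ranked. The rank of Col5a2 was not taken. Its highest value, 9.86, was in AD_B6 replicate 4, against 9.65 in AD_B6 replicate 3. The 5 collagen genes made up 0.0997 to 0.586% of AD_TG libraries, 0.169 to 0.689% of AD_B6 and 0.177 to 0.421% of SJL_B6. Arachnoid and pial markers, led by Ptgds (13.26 ± 0.70), the prostaglandin D synthase, and Slc47a1 (11.84 ± 0.71), a cation exporter, made up 0.142 to 0.261% of AD_TG, 0.179 to 0.361% of AD_B6 and 0.218 to 0.409% of SJL_B6 libraries. Of these 7 markers, Lama1 had no reads in any library. Among other fibroblast genes, Vim stood at 10.53 ± 1.27 and the factor Zic1 at 10.34 ± 0.58, and the 10 genes of that list summed to 0.209% in AD_B6 replicate 3 against 0.0282 to 0.117% elsewhere.

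Markers of other cell types were present beside them. Macrophage markers, led by Csf1r and C1qa, summed to 0.194 to 0.357% in AD_TG, 0.162 to 0.377% in AD_B6 and 0.297 to 0.505% in SJL_B6. Choroid plexus markers, led by Ttr and Otx2, made up 1.66 to 6.54% of AD_TG, 0.326 to 8.71% of AD_B6 and 0.236 to 5.33% of SJL_B6 libraries. Mural markers, led by Acta2 and by Pdgfrb, which the PDGF list holds too, made up 0.0213 to 0.0369% of AD_TG, 0.00874 to 0.0569% of AD_B6 and 0.0197 to 0.0311% of SJL_B6 libraries. Blood endothelial markers, led by Kdr and Flt1, made up 0.00782 to 0.0222% of AD_TG, 0.00968 to 0.0302% of AD_B6 and 0.00972 to 0.0263% of SJL_B6 libraries. The sums of mural and blood endothelial markers were also highest in AD_B6 replicate 3. So were those of bone and cartilage markers, led by Sox9 and Alpl (0.0783%), and astrocyte markers, led by Slc1a2 and Gja1 (0.0487%). The genes of these 4 lists did not rise together there. Acta2, Pdgfrb, Pecam1 (9.85), Alpl and Gja1 (11.30) were among those with their highest value in that library. Flt1, Gfap, Aqp4 and Aldh1l1 were listed at 0 in it. Tagln (6.22), Myh11 (1.25), Sox9 (9.53) and Slc1a2 (8.57) lay below their means over the 12 libraries. The part of these lists in the fibroblast values was not tested.

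Partners of the fibroblast genes were taken from 7 pathway lists, and limma called none of their tested genes in any comparison, beside 0% of all genes. In AD_B6 against SJL_B6, the difference was negative for all 9 tested genes of elastic fibres and adhesive matrix, the surroundings of Fbln1, with a median of -0.35 beside -0.31 over all genes. It was negative for all 6 tested leptomeningeal transporters, the companions of Slc6a13 (median -1.36), and positive for 4 of 5 PDGF genes, the ligands and relatives of Pdgfra (median 1.17). The small leucine-rich proteoglycans related to Dcn and Lum had 1 of 6 positive (median -0.28), the retinoic acid list 5 of 13 (-0.56), forkhead and partner factors 1 of 6 (-1.0) and calcification and BMP genes 6 of 11 (0.04), where 40.2% of all genes tested were positive.

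In AD_TG against AD_B6, 62.8% of all genes tested had a positive difference and the median was 0.41. Positive were 2 of 6 proteoglycans (median -0.13), 10 of 13 retinoic acid genes (0.54), 2 of 5 PDGF genes (-0.03), 6 of 9 elastic fibre genes (1.33), 2 of 6 transporters (-0.27), 3 of 6 forkhead and partner factors (0.03) and 5 of 11 BMP genes (-0.19). In AD_TG against SJL_B6, where 53.3% of all genes were positive, all 5 PDGF genes were positive (median 1.55), 5 of 13 retinoic acid genes (-0.56) and 1 of 6 transporters (-1.15). Positive there too were 3 of 6 proteoglycans (-0.04), 4 of 9 elastic fibre genes (-0.38), 2 of 6 forkhead and partner factors (-0.52) and 6 of 11 BMP genes (0.06), beside a median of 0.08 over all genes.

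The leading genes named here from these lists had reads in every library. Bgn, biglycan, and Fmod, fibromodulin, led the proteoglycans at 11.03 ± 0.53 and 10.58 ± 0.82 over the 12 libraries (SD). Crabp1, a carrier of retinoic acid related to Crabp2, stood at 10.83 ± 1.51. Pdgfa, a ligand of the receptor encoded by Pdgfra, stood at 8.70 ± 1.04 and Pdgfrl, a receptor-like gene, at 8.56 ± 0.84. Fn1, fibronectin, and Fbln5, fibulin 5, stood at 10.53 ± 0.97 and 10.15 ± 0.60, and Slc38a2 and the sulphate transporter gene Slc13a4 at 13.57 ± 0.55 and 9.19 ± 0.91. Zic1 and Zic2, zinc finger factors of the meninges, stood at 10.34 ± 0.58 and 9.45 ± 0.68, and the BMP list was led by Bmp4 at 9.81 ± 0.69 and Bmpr2 at 9.80 ± 0.49. Genes that lead a list here have its highest mean deposited values; these are not known to be per length, so that order is not one of transcript levels.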

How the data were processed

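The organism is the mouse, and 1 file per library was used for 12 libraries, grouped by title. Libraries were made from 500 ng of total RNA with a kit named Lexogen Quant-Seq, per the labels; the kit's version, and so whether reads keep strand or cluster at transcript ends, was not settled. Each deposited file gives log2 values by gene symbol, and the values themselves fit log2(x + 1). Bowtie2, bedtools and the human build hg19 are named, without versions, per the submitters' processing notes; no coordinates of the files were used.

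Of 23282 entries per file, 35 symbols had more than 1; such a symbol is represented by its entry with the highest average, which left out 44 entries. The value of 1 read, 0.698 to 1.76 on the linear scale, was estimated from the even steps of low values; 90.5 to 100% of values below 20 lay within 0.15 of a whole step. A linear value of 0.3 or more counted as reads. The deposited unit is a log scale, so no count model was used. Some libraries also hold values below that of 1 read. Genes with a linear value of 10 or more in at least 4 libraries (11955) entered limma 3.58.1 in R 4.3.3 (trend), all groups in 1 fit, two-sided, calling genes at p under 0.05 after Benjamini-Hochberg adjustment. The fit was tested on shuffled data with known changes. Correlations used 100000 permutations, two-sided, in numpy 2.4.6.

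The genes and lists were chosen with earlier results of these data known. Genes named beside the 10 are the 2 of each list with the highest mean deposited value and the 5 most like the 10; other list genes were named after their values were seen, and 1 gene is not reported here. Alternatives changed the filter, the pseudocount, the scaling, the trend, a replicate block and single libraries. Promoter windows come from RefSeq, build GRCm38.p6.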

Additional observations from a re-analysis of the deposited data

Results flagged for a closer look

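In 4 of 39 groups of 4 libraries that were checked for a library far from the rest, 1 library stood apart. The rule flags about 1 in 20 groups if values spread normally. Values below 1 read were set to 0 and groups wholly at 0 could not be flagged, so that rate does not apply here. Pdgfra was listed at 0 in AD_TG replicate 2, against 8.45 to 9.56 in the other AD_TG libraries. It stood at 1.81 in AD_B6 replicate 2, against 8.36 to 8.93 in the other AD_B6 libraries. Aldh1a2 was listed at 0 in AD_TG replicate 2, against 7.40 to 8.75 in the rest of its group. Slc6a13 stood at 7.70 in the same AD_TG library, where the other 3 had no reads, so any value with reads would have been flagged there. AD_TG replicate 2 thus accounts for 3 of the 4 values; why it differs was not tested.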

How the results depend on the processing

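The replicate numbers are not stated to mark a shared origin. Over all genes tested, same-numbered libraries had correlations of their deviations from the group means between -0.02 and 0.07. The fit with a replicate block called 0 genes in each comparison, but so did the main fit, so it cannot show whether numbers pair libraries. Replicate 3 was highest in every group for Dcn and replicate 2 lowest for Pdgfra, and pairing was not tested for single genes. Counts of genes past the threshold stayed at 0 under every alternative except the fit without trend, which called 10 in AD_B6 against SJL_B6, 10 in AD_TG against AD_B6 and 2 in AD_TG against SJL_B6, none of them among the 10 fibroblast genes. No fibroblast gene passed in any alternative, and the lowest adjusted p was 0.710.

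Signs of the 24 differences were not stable, with 18 changing sign in at least 1 alternative. With 1 library left out at a time, the differences in AD_B6 against SJL_B6 ran from -0.90 to 0.15 for Dcn, -2.81 to 0.60 for Lum, -0.37 to 0.43 for Mgp, -0.90 to 1.47 for Pdgfra, -2.01 to 1.06 for Aldh1a2, -3.26 to 0.08 for Crabp2, -0.43 to 0.60 for Foxc1 and -0.68 to 0.94 for Fbln1. In AD_TG against AD_B6 they ran from -0.61 to 0.44 for Dcn, -2.0 to 1.93 for Pdgfra, -1.77 to 1.81 for Crabp2 and -1.23 to 0.59 for Fbln1. In AD_TG against SJL_B6 they ran from -0.82 to 0.03 for Dcn, -0.27 to 2.02 for Lum, -1.50 to 1.69 for Pdgfra, -0.34 to 3.30 for Aldh1a2, -1.95 to 0.06 for Foxc1 and -0.75 to 0.62 for Fbln1. The medians of the 8 ran from -0.81 to 0.44, from -0.92 to 0.42 and from -0.81 to 0.05, and Lum in AD_TG against AD_B6 from 0.60 to 4.02. With a pseudocount of 10, Pdgfra turned to 0.13, 0.08 and 0.21 in these comparisons. With each library's mean subtracted, Dcn, Pdgfra and Aldh1a2 turned to 0.26, 0.22 and 0.06 in AD_B6 against SJL_B6.

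For pairs of genes, subtracting the library mean gave Dcn and Mgp r = 0.75 (adjusted permutation p = 0.0314), and centring on group means gave Foxc1 and Fbln1 r = -0.03. Without the 2 farthest libraries, r was -0.04 for Dcn and Mgp, 0.37 for Dcn and Foxc1 and 0.55 for Mgp and Foxc1. Without AD_B6 replicate 3 or AD_TG replicate 2, both added after seeing the data, r ran from 0.66 to 0.67 for Dcn and Foxc1, no longer past the threshold, from 0.76 to 0.77 for Mgp and Foxc1, still past it, and from -0.24 to 0.36 for Foxc1 and Fbln1. The cause of these shifts was not tested. The depth is an estimate and its error was not measured, and the deposited scale understates changes of genes with low values.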
